A study of Mus musculus with 24 samples.

Results

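The 10 genes described here mark the onset of neurogenesis in the dorsal telencephalon and the intermediate (basal) progenitors that arise there. They were chosen by symbol from a table of 54658 genes and all 10 were found. They are the proneural factors *Neurog1* and *Neurog2*, the neuronal factor *Neurod4*, their partner *Tcf3*, the intermediate progenitor factors *Eomes* and *Insm1*, the anti-proliferative genes *Btg2* and *Gadd45g*, the matrix gene *Mfap4* and the receptor gene *Sstr2*.

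As background, radial glia line the ventricle of the embryonic cortex and divide there. A proneural factor such as NEUROG2 pairs with an E protein, the product of *Tcf3* among others, and the pair binds short DNA motifs called E-boxes in genes of the neuronal programme. Cells that leave the ventricular surface in this way switch on *Eomes* (also called *Tbr2*) and *Insm1*, divide again as intermediate progenitors, and give rise to cortical neurons. The NOTCH effectors of the Hes family and the Id proteins, which trap E proteins, hold this step back.

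RNA was measured in 24 libraries of mouse embryos, 3 in each of 8 groups. *Cep135* encodes a centriole protein that is mutated in a form of primary microcephaly. The embryos were *Cep135*-/- (mutant) or *Cep135*+/+ (control) from crosses of heterozygotes kept on a C57BL/6J background, and the mutant allele carries a small deletion with a premature stop codon in every cell of the body. Groups were the cortices of 3 mutant (A, B and C) and 3 control (D, E and F) embryos at E11.5, the cortices of 3 mutant (1, 2 and 6) and 3 control (3, 4 and 5) embryos at E14.5, and cells of the same 6 E14.5 cortices dissociated and grown with growth factors as incipient neurospheres for 12 h or 24 h. Values are normalized read counts, that is, read counts per gene divided by 1 size factor per library, from libraries primed at the 3′ ends of transcripts.

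The 23 libraries for which whole reads could be recovered held 4732781 to 11645213 reads on genes, and 1 read was worth 0.645 to 1.69 normalized read counts across the 24. The normalized read count of *Cep135* overlapped between mutants and controls in each setting, and 3′ reads do not check a small deletion. *Cdkn1a*, a target of p53, was higher in every mutant than in every control library of the same setting. For the cortex of mutant 6 the title says E14.5 and the description E11.5, and the title was followed. Dorsal markers were present in all groups, and all 7 erythroid, all 6 mesenchymal, all 5 endothelial and all 6 microglial markers were also above 0 in each cortex group. From *Xist* and Y transcripts, 5 of the 12 embryos were female (A, C, E, 1 and 2), and the 3 E14.5 controls were male.

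All 10 are protein-coding, and in GENCODE vM21 (GRCm38, the build of the files) they lie on 7 chromosomes. The basic helix-loop-helix genes are *Neurog1* at 13:56250478-56252163 (minus strand), *Neurog2* at 3:127633135-127635631 (plus strand), *Neurod4* at 10:130268152-130280240 (minus strand) and *Tcf3* at 10:80409514-80433647 (minus strand). The others are the T-box gene *Eomes* at 9:118478212-118486132 (plus strand), *Insm1* at 2:146221921-146225020 (plus strand), *Btg2* at 1:134075170-134079120 (minus strand), *Gadd45g* at 13:51846678-51848468 (plus strand), *Mfap4* at 11:61485431-61488900 (plus strand) and *Sstr2* at 11:113619342-113626028 (plus strand).

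The E-box has the form CANNTG, which reads the same on both strands. RefSeq promoters (GRCm38.p6) were given for 8 of the 10 genes, and the 250 bases before the start of each were searched. Of 32851 promoters of this length, 66.2% held a CANNTG, 13.0% the form CAGCTG, 3.46% the form CATATG and 14.4% the form CAGATG on either strand. Among the genes described here, those of *Gadd45g* and *Tcf3* held a CANNTG and the other 6 windows held none. Their promoters are shown beside those of *Eomes* and *Neurog2*, whose levels changed with age and culture, with each CANNTG in capitals.
Gadd45g, 13:51846425-51846674, plus strand: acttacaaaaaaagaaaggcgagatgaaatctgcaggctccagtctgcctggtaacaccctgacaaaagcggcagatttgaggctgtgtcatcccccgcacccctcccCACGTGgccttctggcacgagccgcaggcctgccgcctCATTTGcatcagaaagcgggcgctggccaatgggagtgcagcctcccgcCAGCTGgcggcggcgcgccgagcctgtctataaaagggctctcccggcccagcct
Tcf3, 10:80433636-80433885, minus strand: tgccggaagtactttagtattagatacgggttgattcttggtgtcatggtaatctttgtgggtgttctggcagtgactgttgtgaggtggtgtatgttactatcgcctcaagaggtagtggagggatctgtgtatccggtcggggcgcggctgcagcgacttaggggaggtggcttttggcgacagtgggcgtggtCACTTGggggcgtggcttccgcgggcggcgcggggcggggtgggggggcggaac
Eomes, 9:118477939-118478188, plus strand: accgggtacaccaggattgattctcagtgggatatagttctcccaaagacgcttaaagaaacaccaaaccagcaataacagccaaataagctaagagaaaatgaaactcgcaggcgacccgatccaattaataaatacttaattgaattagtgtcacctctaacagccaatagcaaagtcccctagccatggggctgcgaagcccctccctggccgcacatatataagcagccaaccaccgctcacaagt
Neurog2, 3:127632886-127633135, plus strand: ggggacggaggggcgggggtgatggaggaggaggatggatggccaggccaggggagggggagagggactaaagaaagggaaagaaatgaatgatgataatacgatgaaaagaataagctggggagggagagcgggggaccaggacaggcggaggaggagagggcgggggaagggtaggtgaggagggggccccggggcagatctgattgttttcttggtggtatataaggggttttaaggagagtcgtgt
The *Gadd45g* window held 3 motifs, of which the one nearest the start was CAGCTG, and the *Tcf3* window held 1. An absent match says only that these letters are not in this window.

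The first comparison asked how these genes change as neurogenesis advances from E11.5 to E14.5. In control cortices 5 of the 10 genes passed the test, with *Eomes*, *Neurog2* and *Sstr2* higher at E14.5 and *Tcf3* and *Neurog1* lower. In mutant cortices 6 of 10 passed, the same 5 genes in the same directions and *Gadd45g*, which was higher. Limma was fitted to log2(normalized read count + 1). A gene entered a comparison where its mean over those libraries reached 10, p-values were adjusted over all such genes by the Benjamini-Hochberg method, and an adjusted p under 0.05 counted as passing. By the same test 37.1% of 13605 genes passed in controls (18.3% higher, 18.8% lower) and 39.3% of 13647 in mutants (18.4% higher, 20.9% lower), so passing in this comparison is common. The median log2 difference of the 10 genes was 0.37 in controls and 0.12 in mutants, against -0.08 and -0.07 over all genes tested. Age cannot be told apart from the code that opens each sample title, since each code was used at 1 age. The codes may stand for litters, but the titles do not say so.

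*Eomes*, the T-box factor that defines intermediate progenitors, was at 569, 637 and 770.3 in the E11.5 controls and at 1366, 1559.9 and 1840.4 in the E14.5 controls. In mutants it was at 441, 558 and 472 at E11.5 and at 1633, 1424 and 1639.6 at E14.5. The ages did not overlap in either genotype. The ages differed by a log2 of 1.27 ± 0.151 (SE, adjusted p = 0.000171, limma) in controls and 1.68 ± 0.128 (adjusted p = 2.12e-06) in mutants. In bulk samples such as these, a larger share of cells of a type and more RNA per cell cannot be told apart.

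*Sstr2*, a somatostatin receptor gene, had the largest log2 difference with age among the 10. It was at 11.1, 8.36 and 9.33 in the E11.5 controls and at 90.6, 87.8 and 53.2 in the E14.5 controls. In mutants the values were 5.16, 7.81 and 5.77 at E11.5 and 57.6, 57.4 and 65.8 at E14.5. All E14.5 cortices were thus far above all E11.5 cortices, where the gene was covered by few reads. Its E11.5 means, 9.59 in controls and 6.25 in mutants, were below the filter of 10, so it entered these tests only through its E14.5 values. The log2 difference was 2.85 ± 0.295 in controls (adjusted p = 7.45e-05) and 3.09 ± 0.329 in mutants (adjusted p = 2.43e-05), which ranked 224 of 13605 and 149 of 13647 genes from the highest.

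*Neurog2*, the main proneural factor of the dorsal telencephalon, was at 329.5, 217 and 371 in the E11.5 controls and at 544, 507 and 432 in the E14.5 controls. In mutants it was at 244, 323 and 300.0 at E11.5 and at 387, 443 and 427 at E14.5. The ages did not overlap in either genotype, and the log2 difference was 0.72 ± 0.195 in controls (adjusted p = 0.0164) and 0.54 ± 0.144 in mutants (adjusted p = 0.0106). These calls were lost without control 3 (adjusted p = 0.0665) or control 4 (0.0571) at E14.5, and without mutant A at E11.5 (0.0526).

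*Neurog1*, the related proneural factor, went the other way. It was at 66.5, 34.3 and 51.3 in the E11.5 controls and at 32.9, 26.9 and 17.4 in the E14.5 controls, and in mutants at 62.6, 40.2 and 46.2 against 12.4, 28.7 and 34.5. The ages did not overlap, by a narrow margin. On the log2 scale the difference was -0.95 ± 0.323 in controls (adjusted p = 0.0434) and -1.04 ± 0.367 in mutants (adjusted p = 0.0402). It passed under 6 of 13 alternative settings in controls and 9 of 15 in mutants, with adjusted p up to 0.247 and 0.191. Leaving out control D, F, 4 or 5, or mutant A, C or 1, ended the call. Of the 4 markers of olfactory and other placodal neurons 3 were tested and 2 passed as lower in each genotype. Their sum was at 67.6 to 345 at E11.5 and at 68.9 to 100.2 at E14.5, and their part in the *Neurog1* difference was not tested.

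*Tcf3*, which encodes the E proteins E12 and E47, was at 1210.2, 1058 and 1346 in the E11.5 controls and at 703, 702 and 759 in the E14.5 controls. In mutants it was at 1481, 1429 and 1351 against 827, 855 and 813. The ages did not overlap. It fell by 0.73 on the log2 scale in controls (SE 0.121, adjusted p = 0.0012) and by 0.77 in mutants (SE 0.109, adjusted p = 0.000178).

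*Gadd45g*, a growth arrest and DNA damage gene that is switched on as progenitors leave the cycle, was at 498, 564 and 608 in E11.5 controls and 549, 639 and 742 in E14.5 controls, which overlapped. In mutants it was at 437, 621 and 452 at E11.5 and at 776, 664 and 743 at E14.5, which did not. Log2 differences were 0.20 ± 0.141 in controls (adjusted p = 0.286) and 0.55 ± 0.15 in mutants (adjusted p = 0.0128). The difference between the genotypes in this change was itself 0.34 ± 0.214 (adjusted p = 0.665) and did not pass. Without mutant A, mutant C or mutant 1 the mutant call was lost, with adjusted p of 0.0622, 0.069 and 0.0521.

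The other 4 genes did not pass with age in either genotype. *Insm1*, a zinc finger factor of intermediate progenitors, varied more than the ages differed. It was at 105, 72.8 and 82.4 in E11.5 controls and at 240.0, 162 and 55.8 in E14.5 controls. Without control 5 its log2 difference in controls was 1.19 with an adjusted p of 0.00207, so 1 library decided this value. *Btg2*, *Mfap4* and *Neurod4* had adjusted p of at least 0.199 in controls and of at least 0.797 in mutants. *Btg2*, an anti-proliferative gene that marks neurogenic divisions, ranged from 166 to 281 over the 12 cortices.

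**Figure D1:**
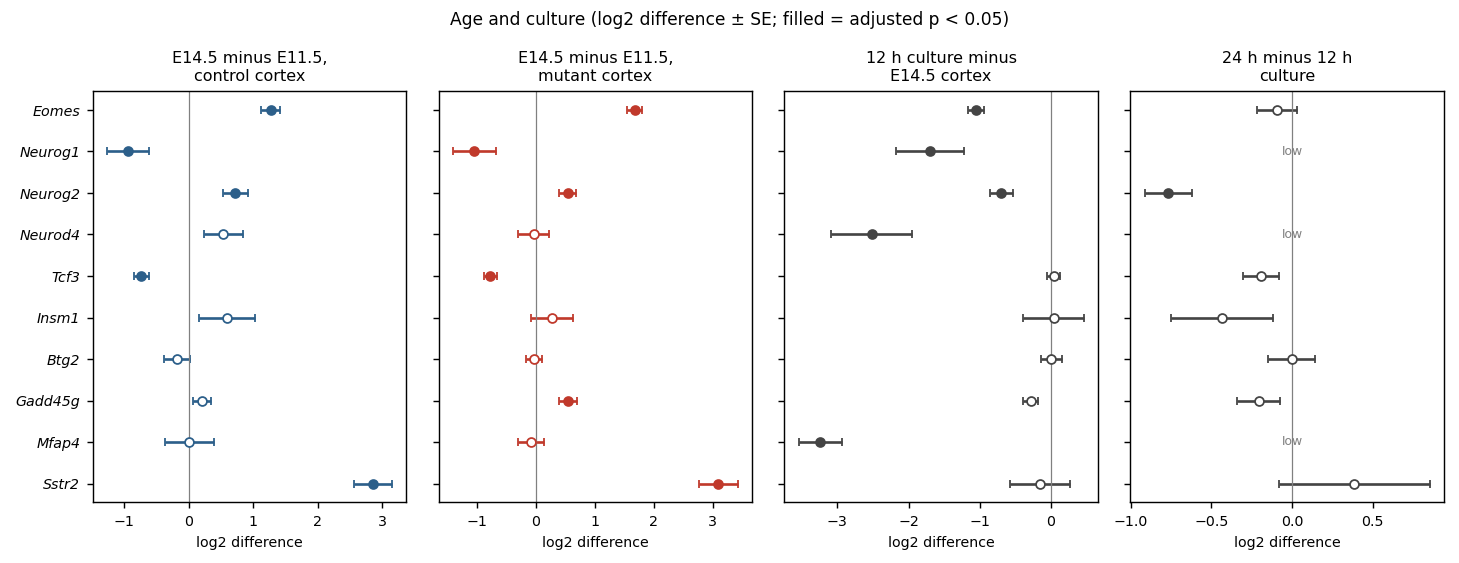
Log2 difference (horizontal axis, on the log2(value + 1) scale) with its SE for each gene (rows) in the age comparison of control and mutant cortices and in the comparisons of cultures with cortices and of 24 h with 12 h cultures. Filled points passed at an adjusted p under 0.05, and "low" marks a gene below the filter. *Eomes*, *Neurog2* and *Sstr2* lie to the right and *Tcf3* and *Neurog1* to the left for age in both genotypes, and all 5 filled points at 12 h lie to the left.

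Among 18 other genes of intermediate progenitors and newborn neurons, 14 passed with age in controls (9 higher, 5 lower) and 13 in mutants (10 higher, 3 lower), with median log2 differences of 0.51 and 0.60. *Unc5d*, a netrin receptor gene of migrating cells, had the smallest p in both, with log2 differences of 3.77 ± 0.23 in controls and 3.31 ± 0.263 in mutants. *Neurod1*, which follows *Neurog2* in the lineage, was higher by 1.19 ± 0.155 in controls. *Pcdh8* in controls (1.79), *Elavl4* in both (1.06 and 0.97), and *Elavl2* (1.14) and *Rhbdl3* (1.71) in mutants were the others named by the smallest p.

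All 13 partners and inhibitors of proneural factors passed with age in controls, 10 of them lower, and 9 passed in mutants, 7 of them lower. The higher ones in controls were *Bhlhe22* (3.97), *Tcf4*, which encodes another E protein (1.65), and *Id2*, an inhibitor of E proteins (1.10). *Tcf4* was thus higher and *Tcf3* lower at E14.5. *Olig2* fell by 1.55 on the log2 scale in controls. In mutants *Bhlhe22* (3.45) and *Tcf4* (1.52) were higher and *Id3* (-2.83) and *Hes5* (-0.96) lower.

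Of 12 radial glia genes, all passed in controls and 9 in mutants, with 10 and 7 lower, and of 12 genes of postmitotic neurons all passed as higher in both. *Slc1a3*, a glutamate transporter gene of radial glia, was higher at E14.5 (1.42 and 1.5), and *Vim* (-1.10 and -0.84), *Nes* (-0.99 and -0.75) and *Hes5* (-1.30 and -0.96) were lower. The neuronal genes with the smallest p in controls were *Neurod2* (4.36), *Bcl11b* (2.52) and *Neurod6* (5.79), and in mutants *Neurod2* (4.80), *Dcx* (1.87), *Bcl11b* (2.23) and *Neurod6* (6.43). The summed level of the 6 mesenchymal markers ranged from 1963 to 7868 at E11.5 and from 1529 to 2571 at E14.5, and its part in these results was not tested.

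Culture for 12 h was compared with the cortices of the same 6 embryos. Of the 10 genes 5 passed, and all 5 were lower in culture, namely *Mfap4*, *Neurod4*, *Neurog1*, *Eomes* and *Neurog2*. Over all 13601 genes tested 30.2% passed, 14.1% as higher and 16.1% as lower. The median log2 difference of the 10 genes was -0.49 against -0.06 for all genes. The age comparison and this one share the 6 E14.5 cortices, so the values of the genes that were higher at E14.5 are given separately and not counted against each other. With the embryo as a block, the same count of 5 was obtained. *Mfap4*, *Neurod4* and *Neurog1* were left out by a filter at a mean of 50, which kept 2 calls.

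*Eomes* was lower after 12 h in 6 of 6 embryos. Mutants 1, 2 and 6 had 743, 940 and 645 at 12 h, and controls 3, 4 and 5 had 779, 847 and 631, all below the lowest cortex at 1366. Its log2 difference was -1.05 ± 0.114 (adjusted p = 5.98e-06), and an exact test over the 6 embryos, two-sided by sign flips, gave p = 0.0312, the smallest possible. It passed under all 23 alternative settings.

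*Neurog2* was lower after 12 h in 5 of 6 embryos. Mutants had 336, 251 and 452 and controls 203, 256 and 239, and the exception was mutant 6, which had 427 in the cortex. The log2 difference was -0.70 ± 0.166 (adjusted p = 0.00497), with an exact p over embryos of 0.0625. *Neurog1* was lower in 6 of 6 embryos, at 1.57 to 11.7 in culture against 12.4 to 34.5 in the cortex (-1.70 ± 0.473, adjusted p = 0.0132).

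*Neurod4*, a neuronal factor downstream of proneural genes, was at 6.82, 21.0 and 15.2 in the 12 h mutants and at 7.87, 0 and 3.04 in the 12 h controls, where the 0 allows up to 3.52 (3 reads, counting error only). All 6 lay below the cortices, which ranged from 30.9 to 48.2. Its log2 difference was -2.51 ± 0.568 (adjusted p = 0.00361).

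*Mfap4* encodes a microfibril-associated matrix protein. It was at 54.1 to 124 in the 6 E14.5 cortices and at 4.21 to 12.9 after 12 h, lower in 6 of 6 embryos. Its log2 difference of -3.23 ± 0.306 (adjusted p = 1.44e-06) ranked 157 of 13601 genes from the lowest. The summed level of 6 mesenchymal markers moved with it, from 1529 to 2571 in those cortices to 118 to 256 at 12 h, and all 6 passed as lower. All 5 endothelial markers and the 4 microglial markers tested also passed as lower, and all 7 erythroid markers as higher, and their part in the results for these genes was not tested.

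*Tcf3*, *Btg2*, *Insm1* and *Sstr2* did not pass, with log2 differences between -0.16 and 0.04. For *Tcf3* and *Btg2* the SE was 0.0938 and 0.144, while for *Insm1* and *Sstr2* it was above 0.4 and the embryos disagreed. *Gadd45g* was at -0.29 ± 0.11 with an adjusted p of 0.0573, and passed under 4 of 23 alternatives, namely a threshold of 0.1, quantile normalization (0.0137) and leaving out mutant 2 at 12 h (0.0163) or control 3 in the cortex (0.0481).

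*Insm1* and *Sstr2* followed no common path from cortex to culture. *Insm1* in embryos 1, 2 and 6 was at 45.2, 78.4 and 155 in the cortex, 124, 55.8 and 253 at 12 h and 63.8, 76.9 and 107 at 24 h. In embryos 3, 4 and 5 it was at 240.0, 162 and 55.8, then 102, 57.5 and 134, then 116, 52.2 and 71.3. It was higher at 12 h than in the cortex in embryos 1, 5 and 6 and lower in the others. *Sstr2* of control 4 went from 87.8 to 11.7 to 28.6, while control 3 went from 90.6 to 58.2 to 186 and control 5 from 53.2 to 127 to 83.8. The 3 mutants stayed between 57.4 and 100.3 throughout.

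**Figure D2:**
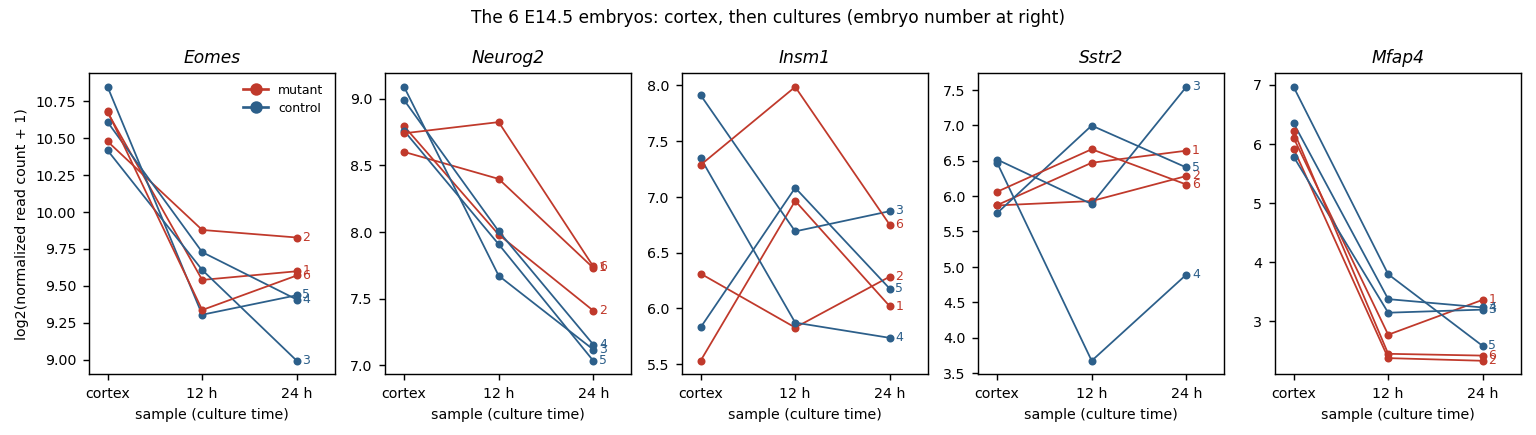
Normalized read count as log2(value + 1) (vertical axis, a log scale with its own range in each panel) of 5 genes in the cortex and the 12 h and 24 h cultures of the same 6 E14.5 embryos, numbered at right, mutants red and controls blue. *Eomes* and *Mfap4* lines all drop from cortex to 12 h, *Neurog2* lines all drop from 12 h to 24 h, and *Insm1* and *Sstr2* lines cross.

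Between 12 h and 24 h, 7 genes were tested and 1 passed. *Neurog2* fell by 0.77 on the log2 scale (SE 0.147, adjusted p = 0.034), and was lower in 6 of 6 embryos (exact p = 0.0312), at 211, 169 and 213 in mutants and 138, 142 and 130 in controls at 24 h. Over all 13359 genes 0.292% passed (0.150% higher, 0.142% lower). With the embryo as a block the count was also 1. Leaving out 9 of the 12 libraries in turn (mutant 1 and controls 4 and 5 at 12 h, and all 6 at 24 h) ended the call, with adjusted p up to 0.0914. *Eomes* at 24 h, 508 to 907, was close to its 12 h range of 631 to 940, with a log2 difference of -0.09 ± 0.125 (adjusted p = 0.865).

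Of the 18 other intermediate progenitor and newborn neuron genes, 11 passed between cortex and 12 h (2 higher, 9 lower), with *Rhbdl3* (-2.01), *Nhlh1* (-1.45) and *Nhlh2* (-1.23) lower and *Hes6* (0.52) higher. Of the 13 partners and inhibitors 10 passed (4 higher, 6 lower). *Hes5*, a NOTCH effector that represses proneural genes, fell by 4.23 (SE 0.13), *Hes1* by 1.76 and *Id4* by 1.16, while *Id2* was higher by 1.08. Of 12 radial glia genes 8 passed, 7 as lower, among them *Nes* (-0.88) and *Fabp7* (-1.75) with *Vim* (0.88) higher. Of 12 postmitotic neuron genes only *Sox5* (-0.59) and *Tubb3* (-0.45) passed, both lower. Between 12 h and 24 h none of these 4 lists had a gene that passed by limma, with 3, 5, 5 and 1 at an unadjusted p under 0.05. *Hes1* and *Hes5* stand in both of the middle lists. Of 11 targets of p53 other than *Btg2*, 8 passed at 12 h, all higher, with *Cdkn1a* (1.41) and *Sesn2* (1.84) first by p, and none between 12 h and 24 h.

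The genotype comparison asked whether loss of *Cep135* changed these genes. None of the 10 passed in any of the 5 mutant and control comparisons (limma), and the count stayed at 0 under every alternative run, edgeR and DESeq2 included where they were run. At an unadjusted p under 0.05 there was 1 gene of 9 at E11.5, 0 of 10 at E14.5, 2 of 7 at 12 h, 2 of 7 at 24 h and 2 of 10 in the 12 cortices fitted together with a term for age. Of all genes tested, 7.39%, 9.10%, 4.85%, 10.6% and 8.71% had such a p, and 0.0149%, 0.0736%, 0%, 0.271% and 0.139% passed after adjustment. The smallest adjusted p among the 10 genes was 0.32. The exact permutation test of 3 embryos against 3 cannot go below 0.1.

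*Eomes* was the only one of the 10 at an unadjusted p under 0.05 in E11.5 cortices. Its 3 mutants, at 441, 558 and 472, lay below its 3 controls, at 569, 637 and 770.3. Means were 490.2 ± 60.6 and 659 ± 102 (SD, n = 3). The log2 difference was -0.42 ± 0.142 (adjusted p = 0.61, limma, exact permutation p = 0.1). The mutants were also lower within each of the codes that open the titles. The summed levels of the 5 dorsal and the 7 ventral telencephalic markers separated the same libraries in the same direction, at 3392 to 4408 in mutants against 4416 to 4964 in controls and at 937 to 1135 against 1309.6 to 1567. None of the 5 dorsal and 6 ventral markers tested passed by limma, and their part in the *Eomes* difference was not tested. Over alternatives the *Eomes* difference stayed between -0.52 and -0.30 with adjusted p of at least 0.342. At E14.5 the genotypes overlapped, with means of 1566 ± 122 and 1589 ± 239 and a log2 difference of -0.01 ± 0.14 (adjusted p = 0.985). At 12 h the difference was 0.04 ± 0.189 (adjusted p = 0.987).

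At 24 h the direction for *Eomes* was the reverse of that at E11.5. Mutants had 774, 907 and 759 and controls 508, 677 and 691, with no overlap and a log2 difference of 0.39 ± 0.15 (adjusted p = 0.368). *Neurog2* behaved alike at 24 h, at 211, 169 and 213 in mutants and 138, 142 and 130 in controls (0.52 ± 0.188, adjusted p = 0.32). At 12 h *Neurog2* overlapped only in mutant 2, which at 251 was just under control 4 at 256 (0.54 ± 0.245, adjusted p = 0.913). At E14.5 it leaned the other way (-0.23 ± 0.139, adjusted p = 0.622). The term for the change of the genotype difference between cortex and 12 h was 0.77 ± 0.277 for *Neurog2* (adjusted p = 0.793) and 2.48 ± 0.984 for *Neurod4* (adjusted p = 0.793), the 2 of 10 genes at an unadjusted p under 0.05 against 5.32% of all genes, of which 0% passed. The *Neurod4* term rests on 5, 0 and 4 reads in the 12 h controls, and over alternatives it lay between 1.55 (pseudocount of 5) and 3.66 (pseudocount of 0.1), with 1.62 without control 4 and 3.19 without control 3. The terms between ages and between 12 h and 24 h had 0 of 10 and 0 of 7 such genes, against 7.84% and 2.38%, and 0% passed in each.

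The 24 h libraries also differed by genotype in depth and in the share of the ribosomal-like RNA *Gm42418*. Mutants held 7903426 to 11645213 reads with 20.5% to 23.0% on *Gm42418*, and controls held 4732781 to 5709443 reads with 6.26% to 13.9%. With this share as a term, *Eomes* was at 0.45 ± 0.324 and *Neurog2* at 0.37 ± 0.413, and 0 of 7 genes kept an unadjusted p under 0.05. Without the term the SE were 0.15 and 0.188. The share did not overlap between genotypes at 24 h, so this fit cannot tell the share from genotype. A term for embryo sex left the genotype difference at 24 h resting on mutant 6, the only male mutant beside male controls, so no count is given for it.

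*Tcf3* was higher in mutants in the cortex at both ages. At E11.5 mutants had 1351 to 1481 and controls 1058 to 1346, and at E14.5 mutants had 813 to 855 and controls 702 to 759, so the genotypes did not overlap at either age. Over the 12 cortices the log2 difference was 0.22 ± 0.0744 (p = 0.00843, adjusted p = 0.393, limma), and the exact permutation test within ages gave p = 0.005, the smallest it can give. Of all genes, 1.33% did not overlap in the same direction at both ages. In cultures the log2 difference was 0.24 ± 0.171 at 12 h and 0.26 ± 0.157 at 24 h, with overlapping groups. Its mean was thus higher in mutants in all 4 settings, as was that of 10.5% of genes. With the share of *Gm42418* as a term the log2 difference at 24 h was -0.19 ± 0.31, a fit that cannot tell this share from genotype.

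Of the members tested, 2 did not overlap between genotypes in each setting, where 13.3%, 13.7%, 11.0% and 16.2% of all genes did not overlap at E11.5, at E14.5, at 12 h and at 24 h. They were *Eomes* and *Tcf3* at E11.5, *Tcf3* and *Neurod4* at E14.5, *Btg2* and *Gadd45g* at 12 h, and *Eomes* and *Neurog2* at 24 h. *Neurod4* at E14.5 was at 33.9, 30.9 and 34.5 in mutants and 48.2, 44.3 and 38.4 in controls (-0.38 ± 0.238, adjusted p = 0.635). *Btg2*, itself a target of p53, was at 244, 228 and 312 in mutants and 154, 156 and 225 in controls at 12 h (0.56 ± 0.248, adjusted p = 0.913). *Gadd45g* was at 558, 762 and 544 against 507, 523 and 489 (0.28 ± 0.185, adjusted p = 0.913).

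*Sstr2* was lower in the E11.5 mutants, at 5.16 to 7.81 against 8.36 to 11.1 in controls, a level below the filter in that comparison. Over the 12 cortices its log2 difference was -0.44 ± 0.2 (adjusted p = 0.556, exact permutation p = 0.04), the second of the 2 genes at an unadjusted p under 0.05 beside *Tcf3*. *Mfap4* was at 4.21 to 5.85 in the 12 h mutants and 7.87 to 12.9 in the 12 h controls, also below the filter. *Insm1* had the largest log2 difference at E14.5, -0.65 with an SE of 0.506, but its 3 mutants and 3 controls overlapped. Leaving out single libraries moved it from -0.21 (without control 3) or -0.23 (without mutant 1) to -1.11 (without mutant 6) and -1.26 (without control 5). With a term for embryo sex it was 0.26. The E14.5 controls are all male and mutants 1 and 2 female, so that value compares mutant 6 alone with the controls. *Neurog1* had the smallest log2 difference at E11.5, -0.00 with an SE of 0.279.

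**Figure D3:**
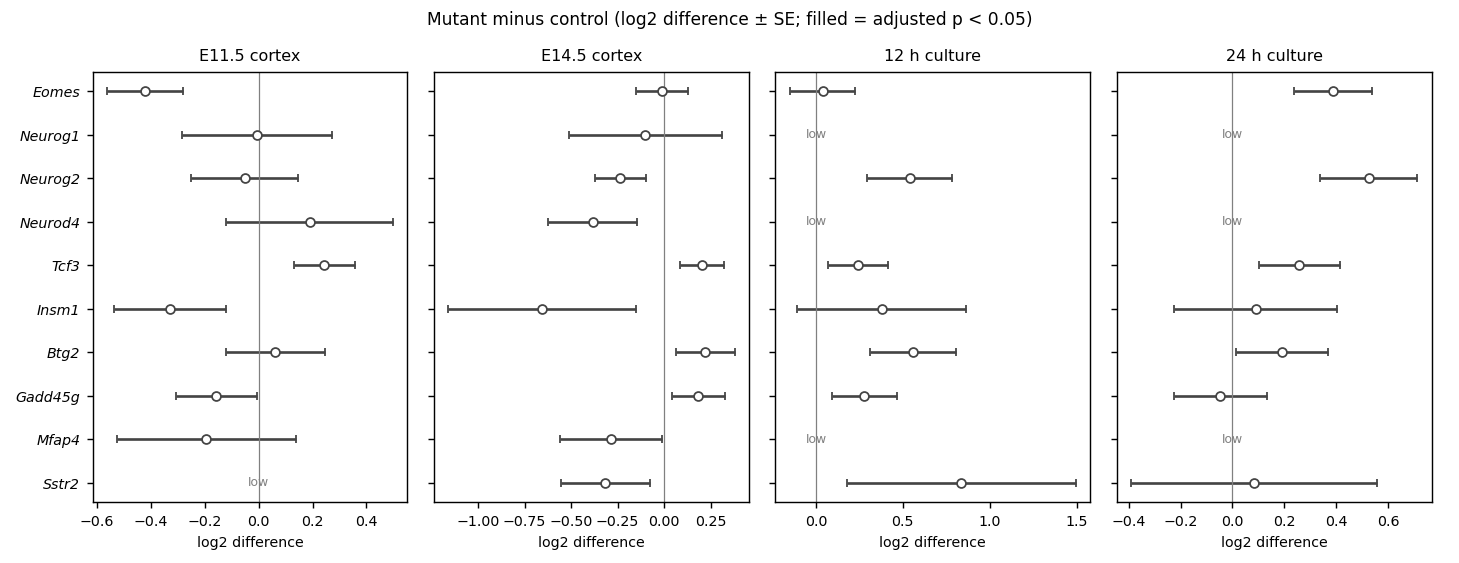
Log2 difference between mutants and controls (horizontal axis) with its SE for each gene (rows) at E11.5, at E14.5 and after 12 h and 24 h of culture, with n = 3 per group. No point is filled, since none passed at an adjusted p under 0.05, and "low" marks a gene below the filter. *Tcf3* lies right of 0 in each panel.

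**Figure D4:**
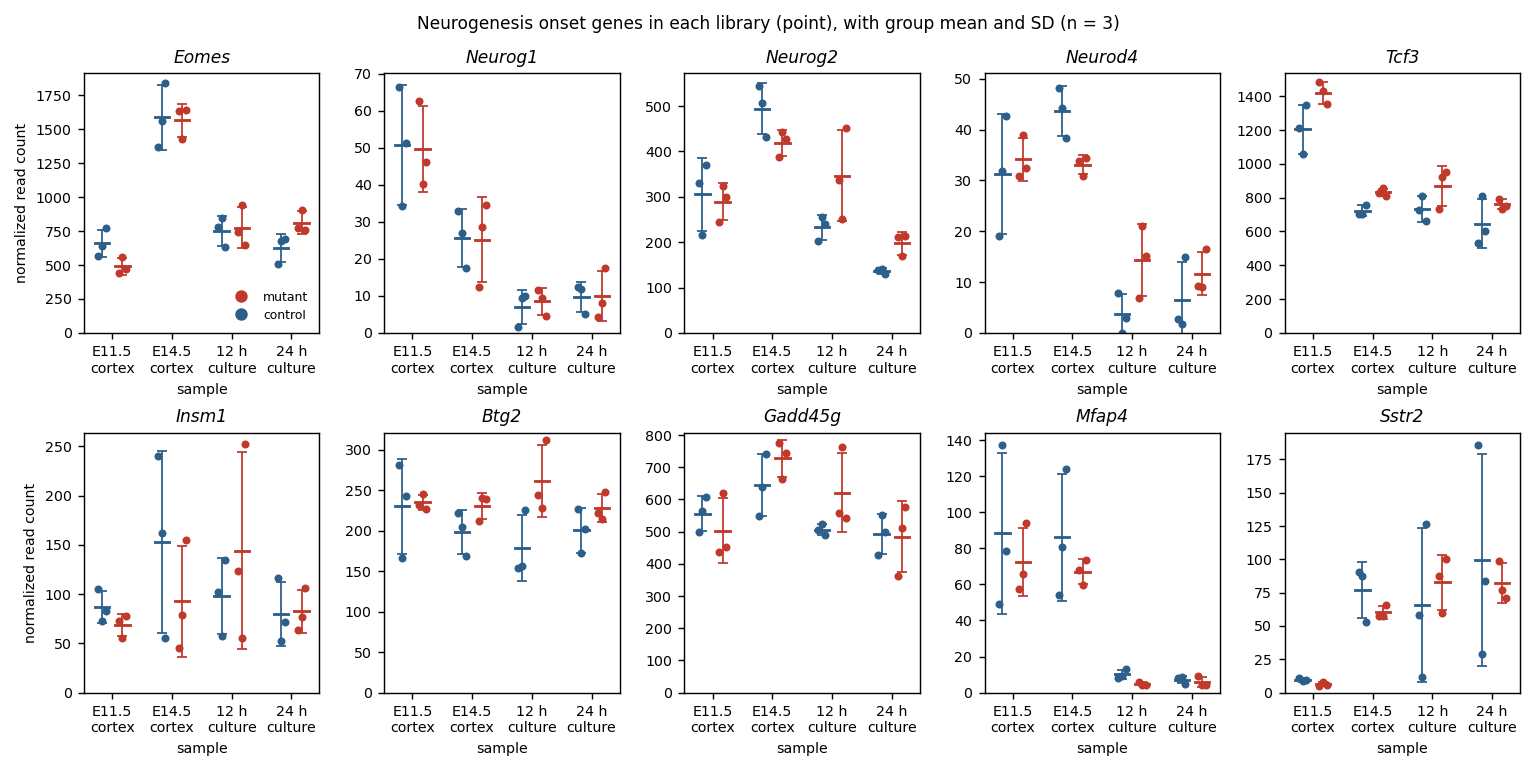
Normalized read count (vertical axis, from 0) of each gene in each of the 24 libraries, mutants red and controls blue, with bars for the group mean and SD (n = 3). *Eomes* and *Sstr2* stand higher at E14.5 than at E11.5 in both genotypes, and *Mfap4*, *Neurog1* and *Neurod4* are lower in the 12 h cultures than in the E14.5 cortices. Mutant and control points overlap for most pairs of gene and setting.

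Beside these, the lists that surround them differed with genotype as follows. Of the 18 other intermediate progenitor and newborn neuron genes none passed in any of the 5 comparisons, and 2, 6, 1, 2 and 4 had an unadjusted p under 0.05 at E11.5, E14.5, 12 h, 24 h and in the 12 cortices. The smallest p were those of *Rnd2* at E11.5 (-0.63 ± 0.191), *Lzts1* (-0.59 ± 0.14) and *Neurod1* (-0.49 ± 0.153) at E14.5, *Mfng* at 12 h (0.82 ± 0.279) and *Nhlh1* at 24 h (0.82 ± 0.179, adjusted p = 0.0785). Of the 13 partners and inhibitors none passed, and 4, 3, 1, 8 and 1 had such a p, with *Bhlhe22* at 24 h (-0.64 ± 0.128, adjusted p = 0.0562) and *Id1* at 24 h (1.66 ± 0.411, adjusted p = 0.111) the lowest.

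Of 12 radial glia genes none passed, with 2, 1, 0, 4 and 2 at an unadjusted p under 0.05. All 12 radial glia genes were below 0 at E11.5 and all 12 above 0 at 12 h, while 8 were above 0 at E14.5 and 10 at 24 h. Their median log2 difference was -0.13, 0.10, 0.20 and 0.35 at E11.5, E14.5, 12 h and 24 h. Of 12 genes of postmitotic neurons 1 passed at E14.5 (*Neurod6*, -0.87 ± 0.132, adjusted p = 0.0481), 2 at 24 h (*Fezf2*, -0.84 ± 0.147, and *Neurod6*, -0.71 ± 0.134), 1 in the 12 cortices (*Neurod2*, -0.86 ± 0.143), all lower in mutants, and none at E11.5 or 12 h. All 12 were below 0 in every comparison except 12 h, where 11 were. The median log2 difference of this list was -0.22, -0.33, -0.18 and -0.31 at E11.5, E14.5, 12 h and 24 h. For those of the 10 genes described here that were tested (9, 10, 7 and 7), it was -0.05, -0.17, 0.38 and 0.19. The culture values leave out *Neurog1*, *Neurod4* and *Mfap4*, and the E11.5 value leaves out *Sstr2*. For all genes the medians were between -0.02 and 0.02. Of the 11 targets of p53, counted without *Btg2*, 4 passed in the 12 cortices (*Eda2r*, *Ccng1*, *Cdkn1a* and *Sesn2*) and 2 at 24 h (*Cdkn1a* and *Ccng1*), all higher in mutants, and none in the other 3. At an unadjusted p under 0.05 (limma) there were 8 of 11 at E11.5, 7 of 10 at E14.5 and 4 of 11 at 12 h. There were 7 of 11 both at 24 h and in the 12 cortices. The median log2 difference of these targets was 0.84, 0.62, 0.52 and 0.59 at E11.5, E14.5, 12 h and 24 h. Summed markers of other cell types also moved with genotype. The sum of choroid plexus and hem markers was 5108 to 16375 in mutants and 2339 to 4462 in controls at 12 h. At 24 h it was 5592 to 17191 and 1892 to 4513. Of the 5 such markers tested, none passed at 12 h, while at 24 h 2 passed as higher and 1 as lower. The sum of the liver list, which shares *Ttr* with this one, was likewise higher in every mutant culture than in every control culture of the same time. The microglial sum was at 651 to 790.5 in mutants and 354 to 393 in controls at E14.5, where 1 marker passed as higher, as 1 did in the 12 cortices, and at 4.21 to 12.7 against 14.1 to 37.8 at 12 h. The endothelial sum was higher in every mutant than in every control at E11.5 and at 12 h, and the mesenchymal and placodal sums at 24 h. The part of these markers in the results was not tested. No gene of these 5 lists passed in any of the 3 terms for a change of the genotype difference (limma).

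By profile over the 24 libraries, the genes most like *Eomes* were *Slc1a3*, *Itpk1*, *Nacc2*, *Masp1* and *Sox1ot*, with root-mean-square differences of 0.254 to 0.317 between centred log2 values, where the median gene was at 0.785. Among the other members *Gadd45g* ranked 133 and *Neurog2* 805 of 13677 genes, *Btg2* 4019, *Tcf3* 7751 and *Insm1* 8390, and *Neurod4*, *Neurog1*, *Sstr2* and *Mfap4* ranked between 12449 and 13114. Most of the 10 were thus not close to *Eomes* by this measure, which also grows with counting error and with the size of a gene's changes. Those ranked last were covered by few reads in culture (*Neurod4*, *Neurog1* and *Mfap4*) or at E11.5 (*Sstr2*). The genes most like *Neurog2* were *Flrt1*, *Eml2*, *Abat*, *Frmd4b* and *Prox1*, at 0.353 to 0.372. The 24 points share age, culture and library depth, and the ranks are descriptive.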

How the data were processed

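Per the labels and the study's methods, reads from oligo(dT)-primed 3′ libraries were aligned to GRCm38 with TopHat 2.0.10 and counted on GENCODE vM20 genes with HTSeq 0.6.1 by strand. The values of signal that the authors deposited, in 1 table of 54658 genes with a column per library, are counts scaled by a size factor. The genes described and the lists around them were chosen with earlier results of these data known. Groups came from the labels, and each comparison was fitted with limma 3.58.1 (intensity trend, R 4.3.3) on log2(value + 1), keeping genes whose mean reached 10, with p-values adjusted by the Benjamini-Hochberg method and a cutoff at 0.05. Exact permutation tests were two-sided. Named beside the 10 genes are at most 4 per list and comparison with the smallest p past the threshold, or at most 2 where none passed, and 5 genes nearest in profile to *Eomes* and to *Neurog2*, and 1 gene that this rule names is not reported here. Every nonzero value (484666) equalled a whole number of reads to within 0.001 reads, and edgeR 4.0.16 and DESeq2 1.42.0 were run on these reads as alternatives, except in comparisons with E11.5 control D, where the step is too close to 1 to tell. Depth was 4732781 to 11645213 reads on genes, and the floor for a 0 (3 reads) covers counting error only. No 2 replicate libraries agreed within sampling noise. Replicates are separate embryos, and the cultures are repeated samples of the 6 E14.5 embryos. Same-embryo pairs come from the labels, and their deviations from the group means correlated at -0.114 to 0.235 over 18 pairs (median 0.137). The steps were tested on simulated counts. Other samples' columns left out number 0.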

Additional observations from a re-analysis of the deposited data

Results flagged for a closer look

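For *Eomes* the direction of the genotype difference was opposite at E11.5 and after 24 h of culture: every E11.5 mutant cortex lay below every E11.5 control cortex (log2 difference -0.42, SE 0.142), and every 24 h mutant culture lay above every 24 h control culture (0.39, SE 0.15). The summed dorsal telencephalic markers (3392 to 4408 against 4416 to 4964) and ventral telencephalic markers (937 to 1135 against 1309.6 to 1567) were also lower in every E11.5 mutant than in every E11.5 control, and their part in the *Eomes* difference was not tested. The opposite directions were not particular to *Eomes*. Of 12 radial glia genes, all 12 were lower in mutants at E11.5 (median log2 difference -0.13) and 10 were higher at 24 h (0.35), though none passed. Neither *Eomes* difference passed the test after adjustment (adjusted p = 0.61 and 0.368, limma), the embryos differ between the settings, and the difference between these 2 settings was not tested.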

How the results depend on the processing

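Of the 12 counts of genes past the threshold, the 5 for genotype and the 3 for changes of the genotype difference were 0 under every alternative run, leaving out each library included. A minimum mean of 50 gave 3 calls for age in controls and 2 for 12 h against the cortex, where 5 had passed in each, and 4 for age in mutants, where 6 had passed, with 7 of the 10 genes tested. Leaving out each library in turn gave 3 to 5 calls for age in controls (3 without E14.5 control 4), 3 to 6 in mutants (3 without E11.5 mutant A), 5 to 6 for 12 h against the cortex and 0 to 1 for 24 h against 12 h. With the embryo as a replicate block the counts stayed at 5 for 12 h against the cortex, 1 for 24 h against 12 h, and 0 for both changes of the genotype difference. Without the cortex or a culture of mutant 6, whose labels conflict, counts were as reported except at 24 h against 12 h, which went to 0 without its 24 h library. Of 2037 alternative values for single genes, 28 lost and 5 gained a call, and 0 changed sign with both values at least 1 SE from 0. Changes of sign to a value closer to 0 than its own SE were not counted. One such was *Tcf3* between genotypes at 24 h, at 0.26, and at -0.19 with the share of *Gm42418* as a term. Low depth limits *Neurog1*, *Neurod4* and *Mfap4* in culture and *Sstr2* at E11.5, and 3 embryos per group limit all genotype comparisons.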
